A study of Homo sapiens with 10 samples.

Results

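The proteasome subunit genes, including those of the immunoproteasome and of the PA28 activator, were followed in HCT116 cells with and without CD276. They were picked by symbol from the known composition of the complex: 7 alpha and 7 beta subunits of the core, the 3 inducible catalytic subunits PSMB8, PSMB9 and PSMB10, 6 ATPases and 11 non-ATPase subunits of the regulatory particle, and the 3 PA28 subunits. All 37 symbols matched a single gene each among the 58050 genes of the expression table. A mean of at least 1 TPM (a gene's share of the library's transcripts, after division of its reads by transcript length) was required for testing. Of the 37 genes, 36 were among the 13581 genes that reached it, and PSMB8 was not.

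HCT116 is a human colorectal carcinoma line. The HCT116-WT group held 5 cultures of cells labelled as wild type. The HCT116-CD276KO group held 5 cultures of cells to which Cas9 with a guide RNA against CD276 had been delivered by electroporation. CD276 is a surface protein of the B7 family. The knockout cultures all derived from a single cell clone, so the loss of CD276 and other properties of that clone cannot be told apart, and p-values measure the spread between cultures only. A scrambled guide is described as a control in the study's methods, but the sources used here do not say whether the sequenced HCT116-WT cells received it. No drug, cytokine or time course separated the groups.

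The proteasome is the protease that degrades proteins tagged with ubiquitin. Its core is a barrel of alpha rings, which gate the entrance, around beta rings, some of whose subunits carry the proteolytic sites. The regulatory particle recognises ubiquitin, removes it and uses a ring of ATPases to unfold the substrate and feed it into the core. Interferon induces alternative catalytic subunits (the immunoproteasome) and the PA28 alpha and beta subunits, which together favour production of peptides for presentation on MHC class I.

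CD276 itself was at 38.08 to 53.61 TPM in HCT116-WT and at 4.4 to 7.42 TPM in HCT116-CD276KO, so the groups did not overlap. Every library summed to between 999999 and 1000000 TPM, a scale that keeps no record of sequencing depth, so no counting interval could be given. All 5 epithelial markers examined (EPCAM, KRT8, KRT18, KRT19 and CDH1) were present in every library, and their sum was 4173 to 4942 TPM in HCT116-WT and 3306 to 3773 TPM in HCT116-CD276KO. All 5 were called lower in the knockout, as were 4.09% of all genes tested. All 5 were also called lower after correction for transcript length and GC content, 4 with quantile scaling and 1 with median-of-ratios factors. Of the leukocyte markers, PTPRC, CD3E and CD14 were at 0.13 TPM or less in every library, and the list's sum of 6.05 to 14.9 TPM came almost wholly from CD68. The stromal sum was 4.57 to 9.06 TPM, mostly COL1A1, with COL3A1, PECAM1 and PDGFRB at 0.31 TPM or less. Libraries also differed in how gene values followed transcript length: Spearman's rho between a gene's deviation from its mean and its length ran from -0.09 to 0.43 in HCT116-WT and from -0.52 to 0.32 in HCT116-CD276KO, with knockout replicates 2 and 3 lowest at -0.52 and -0.49. HCT116-WT replicate 3 and knockout replicate 2 stood apart by base composition, with a rho of 0.61 and 0.48 against GC content.

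Proteasome subunit RNAs were abundant and lay within a narrow band. Leaving out the 3 inducible subunits, the 34 other genes had mean levels from 96.6 TPM (PSMC2, an ATPase) to 520 TPM (PSMA4, an alpha subunit) in HCT116-WT, a 5.38-fold span, and from 91.8 to 529 TPM for the same pair of genes in HCT116-CD276KO, a 5.76-fold span. No value of these 34 genes in any library was below 86.84 or above 605.22 TPM. Together the 37 genes made up 0.813 to 0.890% of all TPM in HCT116-WT and 0.816 to 0.920% in HCT116-CD276KO. The ranges overlapped, with knockout replicates 2 (0.896%) and 3 (0.920%) above every wild-type library.

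The subgroup medians differed, without a test, and single genes crossed their order. In HCT116-WT the median of the subunit means was 323 TPM for core alpha and 341 TPM for core beta subunits, against 168 TPM for the ATPases, 198 TPM for the non-ATPases and 156 TPM for PA28. In HCT116-CD276KO the medians were 331, 357, 148, 186 and 170 TPM in the same order. PSMB2, a core beta subunit, was at rank 30 in both groups, and PSMD2, a non-ATPase, at rank 5 and 6. PSMA4 and PSMB3, a structural beta subunit, held the first and second places in both groups. Of the 36 neighbouring pairs in the ranked list, 30 overlapped between their libraries in HCT116-WT and 32 in HCT116-CD276KO, so most neighbours were not separated beyond their spread. The pairs that were apart in both groups lay at the bottom of the order: PSMC4 over PSMC2, PSMC2 over PSMB10, PSMB10 over PSMB9 and PSMB9 over PSMB8. Ranks were largely kept, with 15 genes at the same rank in both groups and 4 (PSMC5, PSME1, PSME2 and PSME3) moving by more than 2 places.

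**Figure D1:**
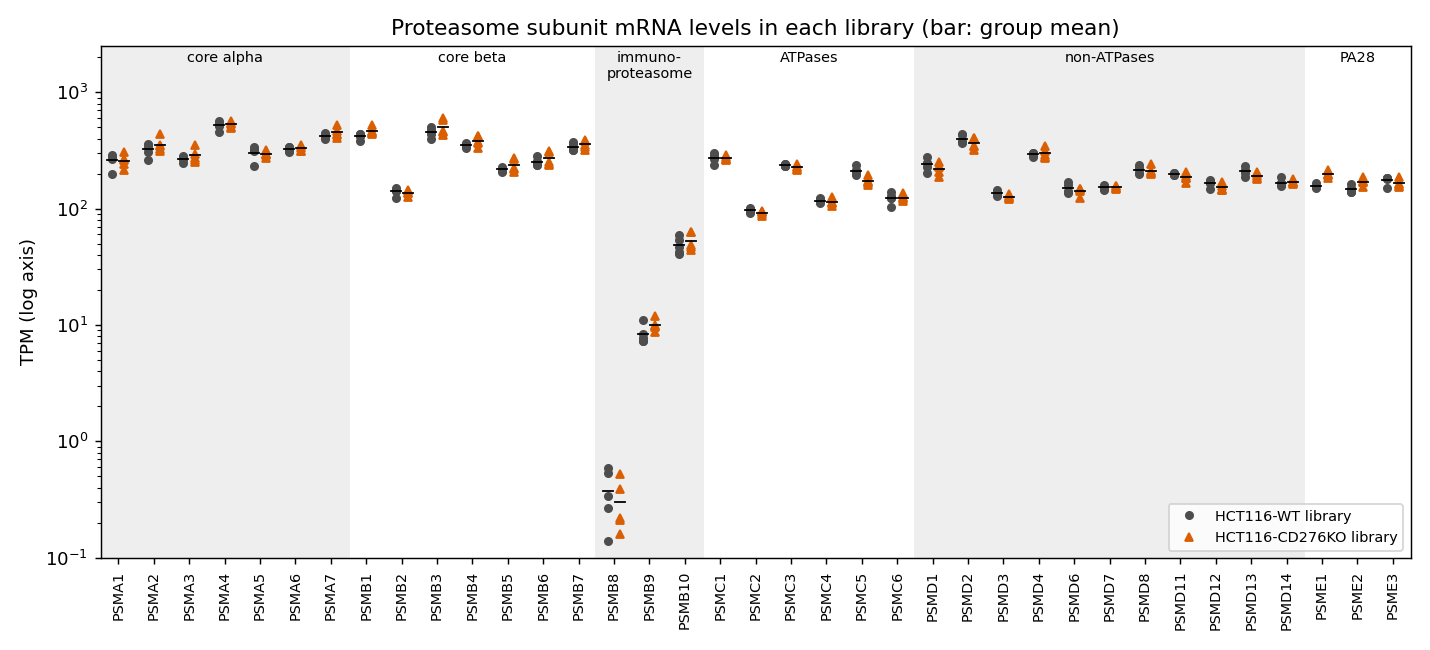
Level of each proteasome subunit gene in TPM on a log axis, by subgroup, with 1 point per library and the mean of each group. The 34 genes other than the inducible subunits lie between 86.84 and 605.22 TPM, while PSMB10, PSMB9 and PSMB8 fall away below them.

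The inducible catalytic subunits were low and unequal. Each replaces a constitutive partner in the core: PSMB8 takes the place of PSMB5, PSMB9 that of PSMB6, and PSMB10 that of PSMB7. PSMB8 was at 0.34, 0.59, 0.53, 0.14 and 0.27 TPM in HCT116-WT and at 0.39, 0.21, 0.52, 0.22 and 0.16 TPM in HCT116-CD276KO. Every library was below 1 TPM and the groups overlapped, with means of 0.374 ± 0.186 and 0.30 ± 0.15 TPM (SD, n = 5 each, two-sided exact permutation p = 0.508).

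PSMB9 was higher, at 7.25, 7.34, 11.02, 8.42 and 7.73 TPM in HCT116-WT and 9.8, 11.83, 9.68, 10.04 and 8.64 TPM in HCT116-CD276KO. Wild-type replicate 3 was the second highest of all libraries, and the other wild-type libraries were below every knockout library. The difference of 0.24 on the log2(TPM + 1) scale had a 95% interval of -0.011 to 0.50 and did not pass (limma, Benjamini-Hochberg adjusted p = 0.244). PSMB9 lies at chr6:32844136-32859851 on the forward strand and overlaps PSMB8 and TAP1 on the opposite strand, and since the strand setting of the counting was not stated, reads in the shared stretches cannot be assigned with certainty.

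PSMB10 was the most abundant of the 3, at 41.08, 47, 59.1, 53.94 and 42.45 TPM in HCT116-WT and 44.48, 63.13, 62.6, 48.59 and 46.57 TPM in HCT116-CD276KO. The groups overlapped over most of their range, and the log2 difference of 0.12 did not pass (limma, adjusted p = 0.598).

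Set against its constitutive partner, each inducible subunit was a small share. PSMB8 amounted to 0.174 ± 0.0897% of PSMB5 in HCT116-WT and 0.127 ± 0.0607% in HCT116-CD276KO. PSMB9 amounted to 3.28 ± 0.359% of PSMB6 and 3.71 ± 0.339%, and PSMB10 to 14.2 ± 1.15% of PSMB7 and 14.8 ± 1.49%, in the same order (SD, n = 5). The ranges of the groups overlapped for all 3 pairs. The constitutive partners did not pass either, with log2 differences of 0.12 for PSMB5, 0.087 for PSMB6 and 0.066 for PSMB7 (limma, adjusted p = 0.372, 0.575 and 0.600).

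**Figure D2:**
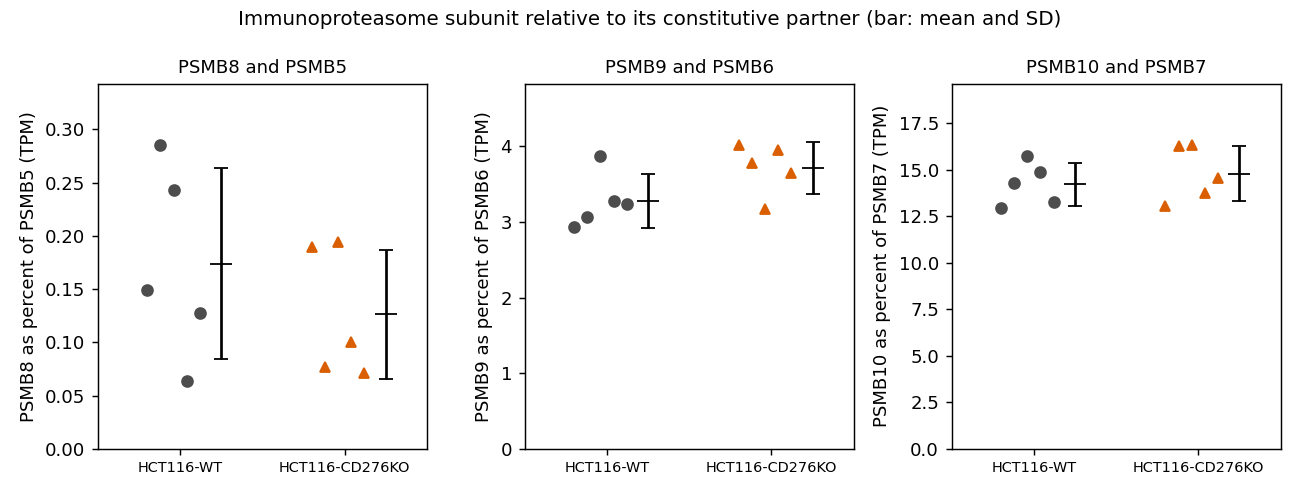
Inducible catalytic subunit as a percentage of its constitutive partner in each library, for PSMB8 over PSMB5, PSMB9 over PSMB6 and PSMB10 over PSMB7. The groups overlap in each pair, and the shares step up from at most 0.286% to between 12.9 and 16.4%.

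Between the groups, 2 of the 36 tested proteasome genes passed an adjusted p of 0.05: PSME1 was higher and PSMC5 was lower in HCT116-CD276KO. That is 5.56% of them, against 4.87% of all genes tested (662 of 13581), so the share called was near the background. Over all genes 0.781% were called higher and 4.09% lower. At an unadjusted p of 0.05, 4 of the 36 passed (PSME1, PSMC5, PSME2 and PSMB1), or 11.1% against 21.9% of all genes. The libraries of the groups did not overlap for 2 of the 36, again PSME1 and PSMC5, against 7.61% of all genes.

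The differences were small throughout. They ran from -0.30 to 0.33 on the log2(TPM + 1) scale, which understates changes of low genes, and the 95% interval of every one of the 36 stayed within 1.5-fold either way. The median difference was 0.0072, with 20 of the 36 above 0, against a median of -0.086 and 31.9% above 0 over all genes. The median was 0.122 for core beta and 0.028 for core alpha subunits, both above 0 under each scaling tried, and 0.027 and -0.052 without wild-type replicate 3 and knockout replicates 2 and 3, the libraries that stood apart. It was -0.048 for the ATPases and -0.091 for the non-ATPases, and both medians turned positive (0.052 and 0.0094) when libraries were scaled by median-of-ratios factors, the first also with quantile scaling. Without those 3 libraries 10 of the 36 differences were above 0, their median was -0.055, and PSME1 alone was called. Across the 36 genes the differences followed transcript length, with a Spearman's rho of -0.704, against -0.410 over 13472 genes. The genes share libraries and are not independent replicates, so this is a description. After each library was corrected for length and GC content the rho was -0.315, and the medians were 0.082 for core alpha, 0.118 for core beta, 0.0021 for the ATPases and 0.0011 for the non-ATPases. In that corrected fit 3 of the 36 were called (PSME1, PSME2 and PSMC5), against 9.64% of all genes.

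**Figure D3:**
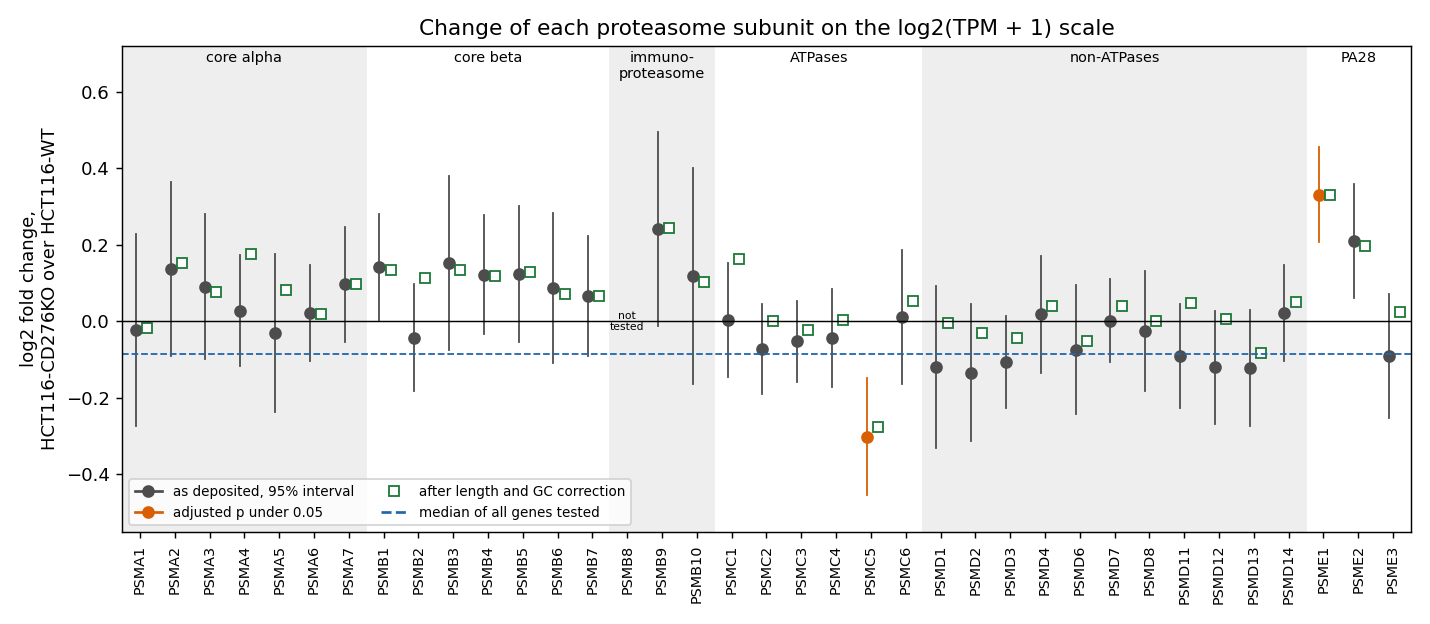
Difference between HCT116-CD276KO and HCT116-WT on the log2(TPM + 1) scale for each of the 36 tested proteasome genes, with 95% intervals from limma, grouped by place in the complex. All intervals lie between -0.46 and 0.50, and PSME1 and PSMC5 are the genes called.

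PA28 held the clearest difference. PSME1, which encodes PA28 alpha and lies at chr14:24136163-24138967 on the forward strand (GRCh38), was at 157.1, 154.33, 153.25, 165.63 and 149.93 TPM in HCT116-WT and at 197.86, 195.81, 214.57, 193.25 and 182.4 TPM in HCT116-CD276KO. All knockout libraries were above all wild-type libraries. The mean was 156 ± 5.94 TPM in HCT116-WT and 197 ± 11.6 TPM in HCT116-CD276KO (SD, n = 5 each), 1.26-fold higher, with a log2 difference of 0.33 ± 0.056 (SE; limma, adjusted p = 0.00608). The two-sided exact permutation p was 0.00794, the smallest that 5 against 5 allows. The call held under all 20 alternative settings run, with differences from 0.28 to 0.43 and adjusted p-values from 0.000653 to 0.0374.

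PSME2 encodes PA28 beta, the partner that assembles with PA28 alpha into the same ring, and lies 4394 bases from PSME1, at chr14:24143362-24147570 on the reverse strand. It was at 150.07, 139.55, 137.96, 164.22 and 141.89 TPM in HCT116-WT and at 169.33, 171.74, 186.5, 168.95 and 153.1 TPM in HCT116-CD276KO. The groups met at 1 point, since knockout replicate 5 was below wild-type replicate 4. The log2 difference of 0.21 (95% interval 0.061 to 0.36) did not pass over all genes (limma, adjusted p = 0.107; 0.0384 to 0.307 over the alternatives) and passed in 1 of the 20 alternatives, the length and GC correction (0.20, limma, adjusted p = 0.0384). With the replicate block added to that correction it did not pass (limma, adjusted p = 0.0955). PSME2 also overlaps RNF31 over 888 bases, and its 6 named pseudogenes together were listed at 1.97% of its level.

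The PSME1 to PSME2 ratio was 1.01 to 1.11 in HCT116-WT and 1.14 to 1.19 in HCT116-CD276KO, without overlap. It was not planned, restates the values of the 2 genes and was not tested. PSME3, which encodes PA28 gamma, a nuclear activator that forms a ring of its own, had 183.28, 180.18, 149.86, 183.5 and 181.71 TPM in HCT116-WT and 163.25, 164.35, 153.5, 157.78 and 185.17 TPM in HCT116-CD276KO. Wild-type replicate 3 was the lowest library and knockout replicate 5 the highest, so the groups overlapped, and the difference of -0.091 did not pass (limma, adjusted p = 0.477). In bulk RNA, fewer cells carrying a transcript and less of it per cell cannot be told apart.

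The promoters of PSME1, PSME2 and PSMB10 are shown because these genes belong to the interferon-inducible arm and each holds the core of the interferon-stimulated response element, GAAANNGAAA, which was searched on both strands from 250 bases before to 50 after the RefSeq start on GRCh38.p14. Capitals mark the match, which in PSME1 is on the opposite strand. The first is chr14:24136189-24136218 on the forward strand, the second chr14:24146619-24146648 and the third chr16:67936852-67936881, both on the reverse strand.
PSME1: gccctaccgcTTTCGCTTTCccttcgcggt
PSME2: cctggggagtGAAAGCGAAAgcccgggcga
PSMB10: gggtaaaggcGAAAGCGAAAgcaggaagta
Of the 37 genes 32 had a RefSeq window, and 5 of the 32 (15.6%) held the motif (these 3, PSMA4 and PSMB4), against 3.65% of 27305 windows. PSMB9, also an inducible subunit, had a window that did not hold it. The core of the antioxidant response element, TGACNNNGC, was found in 8 of the 32 (25%, all windows 13.6%) and CCAAT in 16 (50%, all windows 35.7%), PSMC5 among the latter. PSMB10 and PSME2 held the same letters, and PSME1 held them on the opposite strand. Of these 3 only PSME1 passed in the main fit. A match is a description of the sequence, not evidence that a factor bound there.

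The ATPase ring held the called decrease. PSMC5, which encodes the ATPase Rpt6 and lies at chr17:63827152-63832026 on the forward strand, was at 239.28, 202.4, 195.12, 208.56 and 216.29 TPM in HCT116-WT and at 169.2, 165.8, 160.68, 171.13 and 192.81 TPM in HCT116-CD276KO. All knockout libraries were below all wild-type libraries, although knockout replicate 5 came close to wild-type replicate 3. The mean fell from 212 ± 17 to 172 ± 12.3 TPM (SD, n = 5 each), a log2 difference of -0.30 ± 0.070 (SE; limma, adjusted p = 0.0313; two-sided exact permutation p = 0.00794).

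The PSMC5 call was close to the threshold: it held in 9 of 20 alternative settings, with adjusted p-values from 0.0182 to 0.0880. It was lost when wild-type replicate 1 (0.0774), 2 (0.0570), 4 (0.0632) or 5 (0.0880) or knockout replicate 2 (0.0672), 3 (0.0742) or 4 (0.0759) was left out (limma, adjusted p), while the direction held in all of them. It was also lost with all genes above 0 TPM (0.0548), median-of-ratios factors (0.0736), the replicate block (0.0577) and without the 3 libraries that stood apart (0.0761). Relative to the median of the other ATPases in the same library, PSMC5 was 1.69 ± 0.0613 in HCT116-WT and 1.39 ± 0.135 in HCT116-CD276KO, without overlap. This ratio was not planned and uses the same PSMC5 values, so it is not separate support for the call. FTSJ3, which shares 2861 bases with PSMC5 on the opposite strand, was at 55.8 ± 2.97 and 47.0 ± 5.28 TPM, a difference of -0.25 (limma, adjusted p = 0.112). Its part in the PSMC5 value was not tested.

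**Figure D4:**
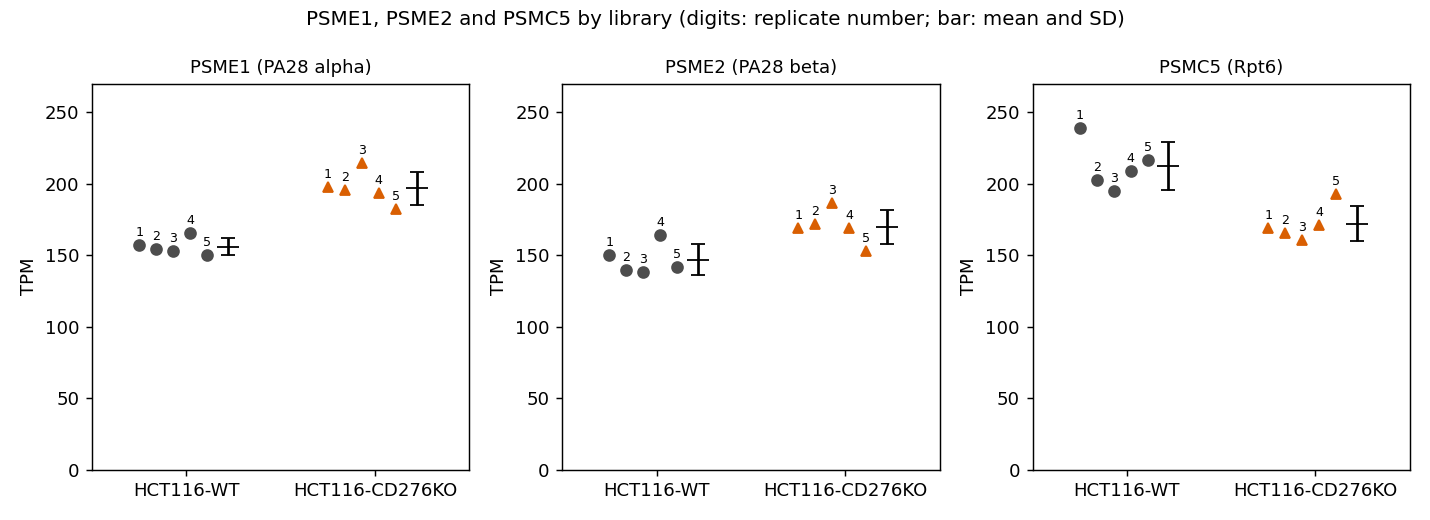
TPM of the proteasome genes with the largest differences, with 1 point per library and the mean of each group. The HCT116-CD276KO libraries of PSME1 (182.4 to 214.57 TPM) lie above all HCT116-WT libraries, and those of PSMC5 (160.68 to 192.81 TPM) lie below them.

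The other 5 ATPases, which complete the ring that unfolds substrates, did not pass. PSMC6 (Rpt4) had the highest difference among the 6, at 139.39, 123.2, 102.7, 129.39 and 122.63 TPM in HCT116-WT and 116.1, 123.24, 135.19, 120.56 and 124.97 TPM in HCT116-CD276KO. The wild-type libraries enclosed the knockout libraries, and the difference was 0.012 (limma, adjusted p = 0.942). The 13 named pseudogenes of PSMC1, mostly PSMC1P1 at a mean of 49.02 TPM, were together listed at 18.0% of its level, so the PSMC1 value is uncertain.

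None of the 11 non-ATPase subunits passed, and 3 differences were above 0 and 8 below. PSMD14, the deubiquitinase that removes ubiquitin chains, was highest with 185.24, 166.25, 155.12, 167.4 and 160.44 TPM in HCT116-WT and 166.95, 168.22, 168.19, 164.25 and 178.47 TPM in HCT116-CD276KO. The knockout values lay inside the wild-type range (0.022, limma, adjusted p = 0.838). PSMD2 (Rpn1), a large scaffold that docks ubiquitin receptors, was lowest with 442, 374.72, 380.93, 363.82 and 431.44 TPM in HCT116-WT and 401.86, 346.78, 320.84, 346.22 and 400.66 TPM in HCT116-CD276KO. Replicates 1 and 5 were the highest libraries in both groups, which overlapped (-0.13, limma, adjusted p = 0.340).

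None of the 7 alpha subunits, which form the outer rings and the gate, passed. PSMA2 had the highest difference, with 360.07, 307.46, 264.1, 351.43 and 331.08 TPM in HCT116-WT and 313.67, 347.62, 437.38, 351.67 and 326.26 TPM in HCT116-CD276KO. The low value of wild-type replicate 3 and the high value of knockout replicate 3 set most of the difference of 0.14 (limma, adjusted p = 0.444), which was -0.029 when wild-type replicate 3 and knockout replicates 2 and 3 were left out. PSMA5 had the lowest, with 335.46, 318.66, 231.09, 319.24 and 312.27 TPM in HCT116-WT and 289.91, 273.8, 319.71, 294.7 and 296.12 TPM in HCT116-CD276KO. Wild-type replicate 3 was again below every other library (-0.031, limma, adjusted p = 0.861).

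Of the 7 constitutive beta subunits 6 had a difference above 0 and none passed. PSMB3, which has no proteolytic site, was highest with 441.04, 399.24, 507.39, 471.52 and 447.22 TPM in HCT116-WT and 427.08, 581.23, 605.22, 468.39 and 455.52 TPM in HCT116-CD276KO. Knockout replicates 2 and 3 stood above all other libraries and the remaining 3 lay inside the wild-type range (0.15, limma, adjusted p = 0.388). PSMB1, which carries no proteolytic site either and was chosen for description after its values were seen, had 440.75, 419.3, 383.8, 437.45 and 421.06 TPM in HCT116-WT and 446.52, 462.28, 526.83, 453.54 and 434.17 TPM in HCT116-CD276KO. Knockout replicate 5 alone fell inside the wild-type range, and the difference of 0.14 did not pass (limma, adjusted p = 0.219). PSMB2, the lowest, had 150.61, 140.48, 124.39, 145.05 and 142.44 TPM in HCT116-WT and 126.31, 140.91, 135.72, 143.7 and 135.08 TPM in HCT116-CD276KO, with the knockout inside the wild-type range (-0.042, limma, adjusted p = 0.71).

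Each subgroup was also read library by library, as a description without a test. The core beta median stood highest in knockout replicates 2 and 3, at 0.21 and 0.23 above the genes' means on the log2 scale, the libraries with the lowest length correlation, and core alpha was lowest in wild-type replicate 3, at -0.21. After the length and GC correction core beta was at 0.15 and 0.20 in knockout replicates 2 and 3. Core alpha was then at -0.12 in wild-type replicate 3, and went from 0.11 to 0.25 in knockout replicate 3. The part of length and GC content in these deviations was not tested. PA28 was above its mean in all 5 knockout libraries, from 0.059 to 0.24, and in 1 of 5 wild-type libraries. This median is over 3 genes and restates PSME1 and PSME2, while PSME3 differed the other way (-0.091). The summed level of the regulatory particle relative to the core was 0.735 ± 0.0221 in HCT116-WT and 0.665 ± 0.0587 in HCT116-CD276KO (SD, n = 5), with overlapping ranges of 0.708 to 0.766 and 0.576 to 0.724.

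**Figure D5:**
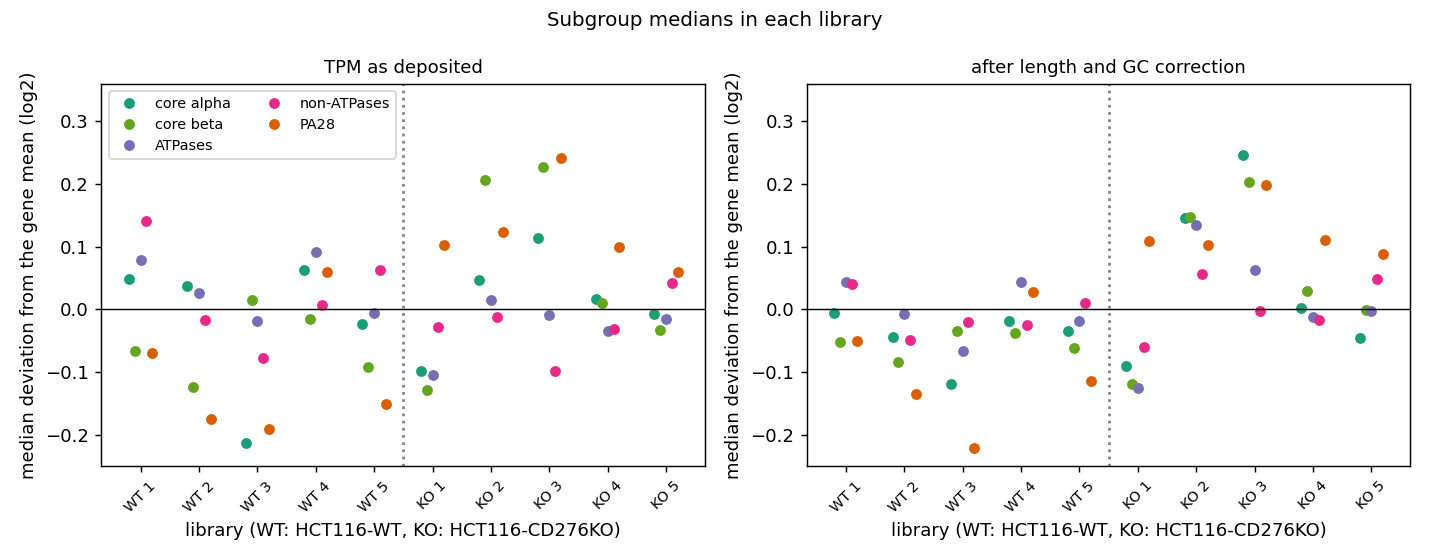
Median deviation of each proteasome subgroup from its genes' means, on the log2(TPM + 1) scale, in each of the 10 libraries. PA28, a median over 3 genes of which PSME3 differed the other way, is above 0 in all 5 HCT116-CD276KO libraries. Core beta peaks in knockout replicates 2 and 3.

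Of the genes around the proteasome, RAD23B alone passed, 1 of the 10 tested in its list, against 4.87% of all genes. A count this small is not a result about the lists. Several other genes had differences as large as those of the subunits. None of 11 assembly factors passed (6 above 0 and 5 below), among them POMP, the maturation factor of the core (0.033, limma, adjusted p = 0.811). The 6 other proteasome genes tested were further regulatory particle subunits, bound deubiquitinases, an activator and an inhibitor, and none passed. The activator PSME4 (PA200) differed by -0.096 (limma, adjusted p = 0.461) and the inhibitor PSMF1 (PI31) by -0.13 (limma, adjusted p = 0.292). None of 7 genes of the transcriptional control list passed. All 7 differences were below 0, with a median of -0.23 against -0.086 over all genes, and after the length and GC correction 4 were above 0 and the median was 0.0068. The list includes NFE2L1, the factor that raises subunit genes when proteasome activity falls (183 ± 13.4 and 155 ± 34.2 TPM, -0.26, limma, adjusted p = 0.273).

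None of the 14 tested interferon-side genes passed, while 5 had an unadjusted p under 0.05 (limma), against 21.9% of all genes. Of the differences 11 were below 0 (6 after the length and GC correction, 7 with median-of-ratios factors). In the main fit 21.4% were above 0, against 31.9% over all genes. The lowest were IRF2, an interferon regulatory factor (-0.50, limma, adjusted p = 0.105), TAPBP, the chaperone tapasin (-0.42, limma, adjusted p = 0.115), and ERAP1, a peptidase that trims peptides for MHC class I (-0.33, limma, adjusted p = 0.156), all 3 named after their values were seen. IRF1 and NLRC5, regulators that drive the inducible subunits and MHC class I, differed by -0.018 and 0.035 (limma, adjusted p = 0.930 and 0.883). TAP1, the peptide transporter subunit, was at 22.1 ± 1.10 and 19.2 ± 1.18 TPM (-0.20, limma, adjusted p = 0.117). B2M, the MHC class I light chain, named after its values were seen, was at 746 ± 28.8 and 836 ± 24.8 TPM, a difference of 0.16 whose libraries did not overlap and which did not pass (limma, adjusted p = 0.0688). B2M passed after the length and GC correction (limma, adjusted p = 0.0204) and with median-of-ratios factors (limma, adjusted p = 0.0389), and in no other alternative. It did not pass with the correction and the replicate block together (0.0709), the block alone (0.162) or all genes above 0 TPM (0.117) (limma, adjusted p). Quantile scaling (0.0559) and the robust fit (0.0839) did not pass it either (limma, adjusted p). The adjusted p was 0.0789 to 0.167 with single libraries left out and 0.0855 without the 3 libraries that stood apart (limma). Among 10 ubiquitin pathway genes, RAD23B, a shuttle that carries ubiquitinated proteins to the proteasome, fell from 277 ± 9.52 to 226 ± 23.5 TPM (-0.30, limma, adjusted p = 0.0387), a call that was lost after the length and GC correction (-0.16, limma, adjusted p = 0.0795). The RAD23B call was also lost when any wild-type library or knockout replicate 2, 3 or 4 was left out (limma, adjusted p = 0.0567 to 0.105). Other settings that lost it were all genes above 0 TPM (0.0727), median-of-ratios factors (0.0548), quantile scaling (0.0769) and the replicate block (0.0725) (limma, adjusted p). Without the 3 libraries that stood apart it did not pass either (limma, adjusted p = 0.0736).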

How the data were processed

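RNA was measured in 10 libraries, 5 per group, made from poly(A) RNA with a strand-specific kit and read as single reads. The deposited values are TPM per gene, made by the authors against GRCh38 and an Ensembl annotation. The submitters' processing notes name STAR 2.5.2b, RSEM 1.3.0, featureCounts 1.5.1 and FastQC 0.11.5; the program that gave the TPM and its strand setting are not given in the sources used here. TPM keeps no depth, so no count model was used, and the counts behind the study's own limma and voom test were not analysed here.

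Values were transformed as log2(TPM + 1), genes averaging under 1 TPM were dropped, and limma 3.58.1 (R 4.3.3, empirical Bayes with a trend) compared the groups over 13581 genes, with Benjamini-Hochberg adjustment and a threshold of 0.05. Single values were tested with a two-sided exact permutation test (scipy 1.17.1). The length and GC correction removed, per library, a loess trend (span 0.3) on the length and GC content of the GENCODE 44 canonical transcript, available for 13472 genes. Positions are from GENCODE 44 on GRCh38, and promoter sequences from RefSeq on GRCh38.p14. Proteins were not compared here. The values of 2 genes of the context and marker lists are not reported here. The fit was tested on simulated data.

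The members, the lists and the tests were chosen with earlier results of these data known. Named genes were every PA28 and inducible subunit with its partner, every member called, a few context genes, and the highest and lowest difference in each subgroup. Alternatives covered the pseudocount, the filter, the scaling, robust fitting, the length and GC correction, a replicate block and leaving out each library. One alternative, without HCT116-WT replicate 3 and HCT116-CD276KO replicates 2 and 3, was chosen after seeing the data.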

Additional observations from a re-analysis of the deposited data

Results flagged for a closer look

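In 5 of the 74 groups of 5 libraries examined (37 genes in each group), the highest or lowest library stood farther from the others than Dixon's 95% critical value for the gap over the range, where chance gives about 3.7. In HCT116-WT, replicate 3 was the low library for PSMA1 (199.61 TPM, the others 265.62 to 291.63, gap over range 0.717), for PSMA5 (231.09 TPM, the others 312.27 to 335.46, 0.778) and for PSME3 (149.86 TPM, the others 180.18 to 183.5, 0.901). Without that library the log2 differences were -0.12 for PSMA1, -0.13 for PSMA5 and -0.15 for PSME3. In HCT116-CD276KO, replicate 2 was the high library for PSMD8 (241.69 TPM, the others 199.1 to 209.04, 0.767), whose difference without it was -0.074. Replicate 5 was the high library for PSMD14 (178.47 TPM, the others 164.25 to 168.22, 0.721), whose difference without it was 0.0026.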

How the results depend on the processing

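PSME1 was called in all alternatives run, and PSMC5 kept its direction in all of them. The number of proteasome genes called was 2, and 1 with all genes above 0 TPM, with median-of-ratios factors, with the replicate block and without HCT116-WT replicate 3 and HCT116-CD276KO replicates 2 and 3; it was 3 with the length and GC correction and 1 to 2 when single libraries were left out. Replicate numbers did not pair the libraries (correlations of same-numbered libraries from -0.181 to 0.119), and the replicate block called 378 genes in all against 662, 688 with the correction added. The correction alone called 1299 (600 higher, 699 lower, against 106 and 556), median-of-ratios factors 197 higher and 386 lower, quantile scaling 253 and 385, and leaving out single libraries 343 to 857, with a fall of over 1.5 times without HCT116-WT replicate 1, 2, 4 or 5 or HCT116-CD276KO replicate 3 or 4. The median difference was 0.0072, 0.11 with median-of-ratios factors and -0.055 without the 3 libraries.

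Small differences changed sign, none of them past the threshold. With the length and GC correction, with or without the block, PSMA5 was 0.082, PSMB2 0.11, PSMC2 0.0011, PSMC4 0.0031, PSMD8 0.0011, PSMD11 0.048, PSMD12 0.0051 and PSME3 0.025. With median-of-ratios factors PSMA1 was 0.079, PSMA5 0.070, PSMB2 0.058, PSMC2 0.028, PSMC3 0.048, PSMC4 0.056, PSMD6 0.026, PSMD8 0.075, PSMD11 0.0094 and PSME3 0.0097. With quantile scaling PSMA1 was 0.016, PSMB2 0.0086, PSMC4 0.0092 and PSMD8 0.014. As a ratio of means PSMC1 was -0.0011. Without the 3 libraries PSMA2 was -0.029, PSMA3 -0.058, PSMA4 -0.030, PSMA6 -0.052, PSMB5 -0.00090, PSMB6 -0.0044, PSMC1 -0.089, PSMC6 -0.092, PSMD4 -0.074 and PSMD7 -0.0024. Leaving out single libraries gave PSMA1 -0.12 to 0.041, PSMA4 -0.022 to 0.056, PSMA5 -0.13 to 0.0086, PSMA6 -0.0042 to 0.045, PSMC1 -0.049 to 0.039, PSMC6 -0.053 to 0.057, PSMD4 -0.037 to 0.053, PSMD7 -0.018 to 0.020, PSMD8 -0.074 to 0.011 and PSMD14 -0.0037 to 0.060. The causes were not tested. The depth of each single library is unknown here, which limits what can be said of PSMB8.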
